A study of Rattus norvegicus with 12 samples.

Results

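The jejunum was compared with the duodenum in homozygous Belgrade rats (b/b), on the 6 of the series' 12 arrays that carry RNA of these animals. The 3 b/b jejunum arrays and the 3 b/b duodenum arrays were chosen by their labels and paired by replicate number. RNA of intestinal scrapes was hybridised to 1 array per segment and rat group. The other 6 arrays hold both segments of heterozygous rats (+/b), again from 3 rat groups, and served here to estimate the spread of paired differences and to ask whether the b/b segment difference was also seen in that genotype. Belgrade rats carry a recessive mutation of Slc11a2, which encodes DMT1, an importer of divalent metals. The b/b rats carry it on both alleles and the +/b rats on 1, so every array comes from carriers, and no wild-type rat is among the samples. The mutation changes an amino acid and leaves the transcript in place, so the Slc11a2 signal does not check the genotype labels. A replicate is a group of rats, and the sources used here give neither the number of animals per group nor their age, sex or diet.

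The duodenum is the first stretch of the small intestine, where iron and calcium are absorbed at high capacity, and the jejunum follows it. Enterocytes of the duodenum reduce ferric iron at the brush border, import it through DMT1 and export it to the blood through ferroportin, and these steps respond to iron shortage and to hypoxia-inducible factors. Homozygous Belgrade rats import iron poorly and are anaemic, and absorption of bile acids and vitamin B12 is a known task of the distal small intestine.

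The unit throughout is the scanner signal of a probe set, scaled so that the 2% trimmed mean of each array was 500. The median scaled signal of the 12 arrays lay between 108.5 and 181.5. The b/b duodenum array of rat group 1 stood apart, its median rank correlation (Spearman) with the rest being 0.871, while those of the other 11 arrays were 0.895 to 0.932. A probe set was tested where its mean signal over the 12 arrays was at least 100, which kept 17694 probe sets. A probe set that was dim in 1 segment could pass through the other, which favours a difference toward the brighter segment. Differences are jejunum minus duodenum of log2(signal + 16) within a rat group, averaged over 3 rat groups (n = 3 for every value below) with the standard error (SE) of the limma fit. The added 16 shrinks the differences of dim probe sets. A call is a Benjamini-Hochberg adjusted p under 0.05 over all probe sets tested.

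Markers of absorptive epithelium were bright in both segments, as the label of intestinal tissue asks. The 7 markers, among them Epcam, an epithelial adhesion protein, summed to 370000, 171000 and 121000 in duodenum 1, 2 and 3 and to 279000, 180000 and 113000 in jejunum 1, 2 and 3. None of the 7 was called, with differences between -0.22 and 0.36 (their median of -0.14 turned to 0.05 after quantile normalisation). Markers of exocrine pancreas summed to 10600 in duodenum 3 and to between 1630 and 2750 in the other 5 b/b arrays. None of their 18 tested members was called, with a median difference of -1.06, and in +/b duodenum 2 they summed to 217000. That array enters the shared spread. Without +/b rat group 2 the marker Cpb1 was called lower (-2.52, limma adjusted p = 0.0276), while Prss1 and Amy2a3 were not called (limma adjusted p = 0.0837 and 0.289). Stomach markers were higher in each duodenum array (818, 2220 and 4050) than in the jejunum arrays (330 to 451), and of 4 tested members Gkn1, a gastric mucosa protein (-2.94 ± 0.59), and Tff1, a gastric trefoil peptide (-2.55 ± 0.37), were called lower (limma adjusted p = 0.0254 and 0.00416). The Brunner gland marker Tff2 read 117, 261 and 1230 in duodenum and 108, 69.1 and 67.5 in jejunum, with no overlap but no call (-1.90 ± 0.77, limma adjusted p = 0.255). The call of Tff1 was lost without b/b rat group 2 or 3 and that of Gkn1 also without +/b rat group 1 (limma adjusted p up to 0.248), and Tff1 did not pass without the block (0.134).

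Markers of other cell types held 6 calls. Fibroblast markers summed to 1290, 2070 and 1450 in duodenum and to 1730, 6470 and 2590 in jejunum, and the matrix proteins Dcn (1.35 ± 0.26) and Lum (1.83 ± 0.39) were called higher of 6 tested (limma adjusted p = 0.0213 and 0.033). Macrophage markers summed to 8270, 4730 and 3890 in duodenum and to 18700, 20700 and 9900 in jejunum. Nearly all of that sum was Lyz2, a lysozyme that Paneth cells of the crypts also express and the called member of 3 tested, and the other 4 markers summed to 536, 548 and 673 against 655, 885 and 556, which overlapped. Mcpt1, a mast cell protease, was called higher (1.39 ± 0.32, limma adjusted p = 0.0453) and Mzb1, a plasma cell protein, lower (-1.02 ± 0.19, limma adjusted p = 0.0164). The fibrinogen chain Fga of the liver list was called higher (1.26 ± 0.28, limma adjusted p = 0.0437), while its dimmer probe set was not called (0.57 ± 0.43, limma adjusted p = 0.585). Erythroid markers were not called (median -0.33 over 3 tested), nor were those of smooth muscle, endothelium, T cells, fat, or neurons and glia. Of these 6 calls, Lyz2 alone passed in each fit without 1 rat group, while Dcn, Lum, Mcpt1, Mzb1 and Fga were lost without b/b rat group 2 or 3, Lum and Fga also without b/b rat group 1, Dcn and Mcpt1 without +/b rat group 1, and Mcpt1 and Fga without +/b rat group 2 (limma adjusted p from 0.0524 to 0.324). Those 5 and Lyz2 did not pass without the block (limma adjusted p from 0.117 to 0.527). In bulk tissue, fewer cells of a type and less RNA per cell cannot be told apart, and the part of these cell types in the differences below was not tested.

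**Figure D1:**
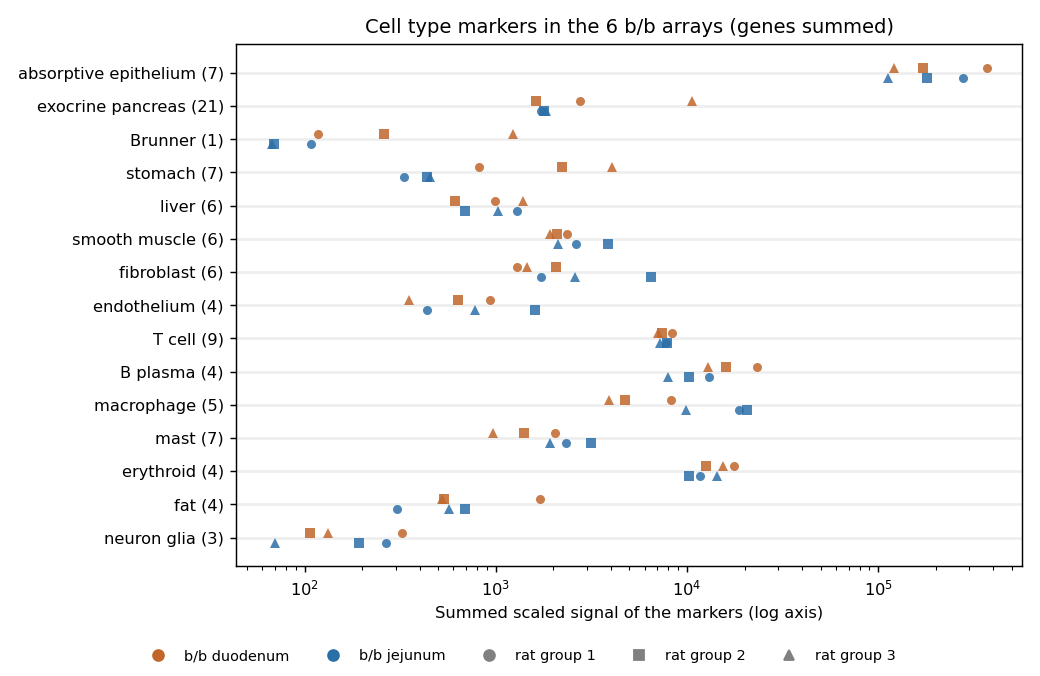
Summed scaled signal (x axis, log scale) of the markers of each cell type (rows, with the number of genes summed in parentheses) in the 6 b/b arrays. Colour gives the segment and the symbol the rat group, and 1 point is 1 array. The exocrine pancreas sum of duodenum 3 (10600) lies to the right of the other 5 arrays, and the macrophage sums, nearly all Lyz2, lie further right in the 3 jejunum arrays, while the other 4 macrophage markers summed to overlapping values (536 to 673 in duodenum, 556 to 885 in jejunum).

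Between the segments, 431 of 17694 probe sets were called, or 2.44%. The jejunum was the higher segment for 208 of them (1.18% of those tested) and the lower for 223 (1.26%). Every called probe set moved the same way in all 3 b/b rat groups, which selection by a paired test favours and which is no separate support. In 349 of them the 3 jejunum arrays did not overlap the 3 duodenum arrays, which 14.8% of all tested probe sets showed. The size of the called differences had a median of 1.23 on the log2 scale and a minimum of 0.51, and 89 probe sets (40 higher, 49 lower) differed by 2 or more. The called probe sets with 1 annotated gene named 154 genes higher and 164 lower. Over all tested probe sets the median difference was 0.07, and with each array centred on its median (-0.03 over all) the split was 139 higher and 232 lower, or 37.5% higher against 48.3%. The count was 101 without b/b rat group 2 and 166 without b/b rat group 3, against 403 without b/b rat group 1 and 300, 417 and 509 without +/b rat group 1, 2 and 3, and 135 when the arrays were taken as independent. Without b/b rat group 3 and +/b rat group 2, whose duodenum arrays had the highest pancreas signal, it was 140, in a fit chosen after the data were seen. That fit called 4 iron genes, 6 hypoxia genes, 2 calcium genes, 4 genes of B12 and folate, 7 of acid, chloride and water, 4 enteroendocrine, 5 Paneth and 6 distal small intestine genes of the counts below. It lowered the counts of 24 other lists by over 1.5 times, among them to 6 for alcohol and aldehyde enzymes, to 1 for glutathione and for sterol synthesis, and to 0 for cell cycle, crypt and stomach genes.

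Among called genes the largest rise was that of Plb1, a phospholipase of the brush border that hydrolyses dietary phospholipids. Its signal was 101, 35.7 and 69.8 in the duodenum of rat groups 1, 2 and 3 and 3610, 9430 and 6150 in the jejunum, a log2 difference of 6.21 ± 0.56 (limma adjusted p = 0.000219), or 6.53 with 1 and 5.53 with 64 added in place of 16. Tmigd1, an adhesion protein of epithelial cells, read 25.9, 41.9 and 45.8 in duodenum and 916, 4110 and 2350 in jejunum (5.30 ± 0.47, limma adjusted p = 0.000219). For both genes every jejunum array lay far above every duodenum array, and the duodenum signals were in the range of dim probe sets. With b/b duodenum signals this dim, both genes passed the signal filter through other arrays, which favours a rise in advance. Osr2, a zinc finger transcription factor, rose from 63.9, 27.8 and 23.4 to 1300, 1160 and 650 (4.29 ± 0.42, limma adjusted p = 0.000345). Fabp6, the bile acid-binding protein of enterocytes, read 13.3, 51.9 and 72.6 in duodenum and 327, 5350 and 476 in jejunum. Its jejunum 2 array was more than 10 times as bright as the other jejunum arrays, and the difference of 4.11 ± 0.68 (limma adjusted p = 0.00851) lost its call without b/b rat group 2 (limma adjusted p = 0.119) and without the block (0.0675).

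Further rises joined nutrient receptors, gut peptides and antimicrobial proteins. The B12 receptor Cubn, the folate receptor Folr1, the gut peptide Nts and the Paneth cell phospholipase Pla2g2a were among them and are given with their groups below. Cmahp read 1140, 416 and 452 in duodenum and 8270, 10700 and 8050 in jejunum (3.86 ± 0.32, limma adjusted p = 0.000133), and its dimmer probe set gave 3.81 ± 0.23. Fam151a (3.43 ± 0.49), Gnai1, an inhibitory G protein subunit (3.23 ± 0.41), and Hspa12a, a relative of the heat shock proteins (3.17 ± 0.55), completed the 12 largest rises with no overlap between segments (limma adjusted p = 0.00383, 0.00182 and 0.0119). Gnai1 averaged 50.1 in b/b and 78 in +/b duodenum, and Hspa12a 31.3 and 84. Both passed the signal filter through their jejunum arrays, so a rise was favoured in advance. Among these 12 genes, the calls of Fabp6 and Hspa12a were lost without b/b rat group 2 (limma adjusted p = 0.119 and 0.158), Hspa12a did not pass without the block (0.0563), and the other 10 passed whichever of the 6 rat groups was left out.

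At the other end stood Akp3, an intestinal alkaline phosphatase, with 8880, 12400 and 7140 in duodenum and 81.1, 16.5 and 713 in jejunum. The difference was -6.13 ± 0.77 (limma adjusted p = 0.00171), and the jejunum arrays ran over a wide range below the duodenum. Because jejunum 1 and 2 were dim, its size depends on the constant added (-6.52 with 1 and -5.48 with 64), and no fold is given. Cybrd1, S100g, Slc11a2 and Slc40a1, which move metals, are described below. Pdx1, a homeobox factor of duodenum and pancreas, read 1130, 1780 and 2710 in duodenum and 44.9, 38.1 and 121 in jejunum (-4.53 ± 0.41, limma adjusted p = 0.000219). Slc4a7, a sodium bicarbonate cotransporter, fell from 7570, 19300 and 17300 to 1750, 895 and 3390 (-2.95 ± 0.33, limma adjusted p = 0.000736). Sult6b2, a sulfotransferase, read 29200, 21300 and 17000 in duodenum and 7660, 492 and 5870 in jejunum, where rat group 2 was far below the others (-2.95 ± 0.59, limma adjusted p = 0.0255). The calls of Sult6b2 and of Adh7, an alcohol dehydrogenase with dim jejunum signals, were lost without b/b rat group 2 (limma adjusted p = 0.103 and 0.247) or +/b rat group 1 (0.0587 and 0.0524), and that of Adh7 also without b/b rat group 3 (0.229), while the other 10 of the 12 largest falls passed in each such fit. Sult6b2 did not pass without the block (0.19).

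**Figure D2:**
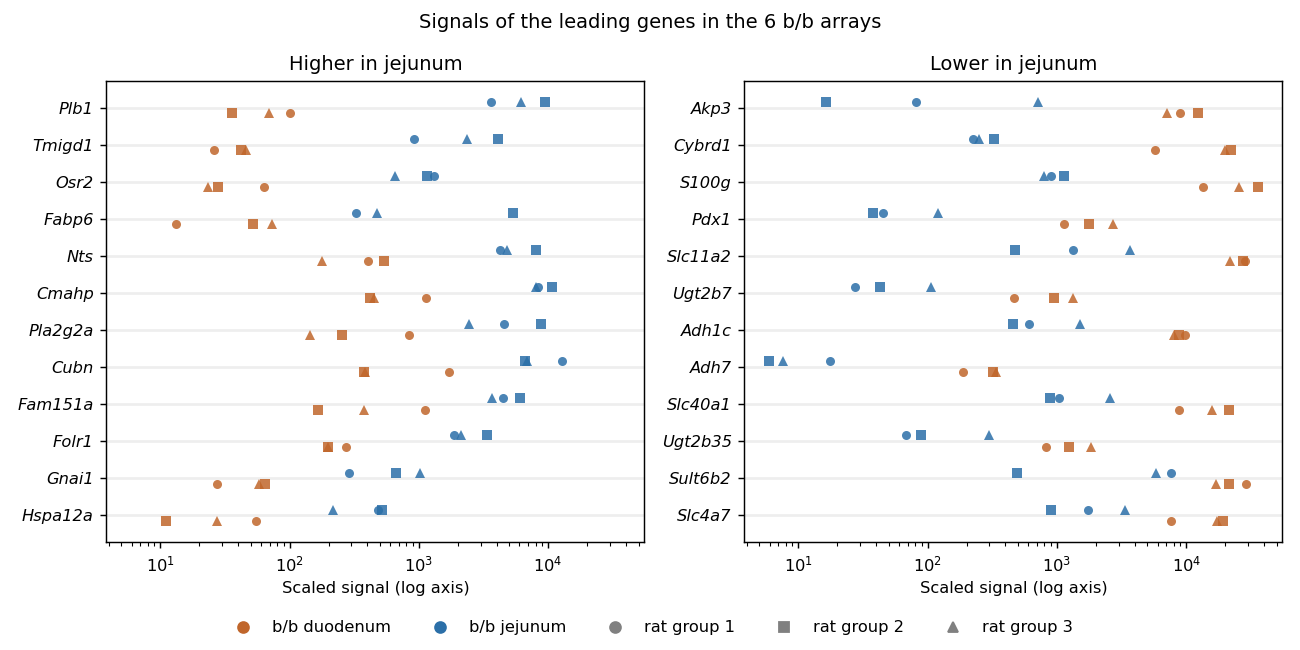
Scaled signal (x axis, log scale) of the 12 genes with the largest rise (left) and the largest fall (right) among called genes whose segments do not overlap, each on its brightest probe set. Colour gives the segment and the symbol the rat group, and 1 point is 1 array. For all 24 genes the 3 jejunum points and the 3 duodenum points are apart, and Fabp6, Akp3 and Sult6b2 show the wide spread in jejunum described in the text.

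Promoter sequences of 6 of these genes are shown because they belong to the largest movers in each direction. They run from 250 bases before to 50 bases after the annotated start, 5′ to 3′ on the gene's own strand, from RefSeq on the GRCr8 assembly, which was matched by gene symbol. The positions are chr6:29930134-29930433 (minus strand) for Plb1, chr10:62236965-62237264 (plus) for Tmigd1, chr17:81501645-81501944 (minus) for Cubn, chr9:95252331-95252630 (plus) for Akp3, chr3:76342343-76342642 (plus) for Cybrd1 and chr9:55543411-55543710 (minus) for Slc40a1. Capitals mark matches, on either strand, to the motif letters CATAAA of CDX factors, AGATAA of GATA factors, GTTAAT of HNF1 factors and ACGTG of hypoxia-inducible factors.
Plb1: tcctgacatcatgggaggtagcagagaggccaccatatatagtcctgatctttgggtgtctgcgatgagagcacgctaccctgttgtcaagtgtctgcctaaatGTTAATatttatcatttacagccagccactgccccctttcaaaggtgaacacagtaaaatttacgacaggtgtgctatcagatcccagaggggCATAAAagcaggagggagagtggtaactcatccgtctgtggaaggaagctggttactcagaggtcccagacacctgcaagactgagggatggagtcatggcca
Tmigd1: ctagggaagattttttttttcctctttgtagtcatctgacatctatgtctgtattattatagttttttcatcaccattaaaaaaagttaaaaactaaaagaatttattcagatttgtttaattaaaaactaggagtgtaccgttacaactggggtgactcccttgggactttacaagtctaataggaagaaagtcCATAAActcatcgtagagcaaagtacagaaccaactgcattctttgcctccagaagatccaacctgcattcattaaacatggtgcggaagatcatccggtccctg
Cubn: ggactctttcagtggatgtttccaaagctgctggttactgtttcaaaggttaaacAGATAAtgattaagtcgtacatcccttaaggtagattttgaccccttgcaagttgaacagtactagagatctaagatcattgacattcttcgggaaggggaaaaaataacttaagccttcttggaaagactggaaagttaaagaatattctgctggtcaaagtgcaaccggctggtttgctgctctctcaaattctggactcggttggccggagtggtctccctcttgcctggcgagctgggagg
Akp3: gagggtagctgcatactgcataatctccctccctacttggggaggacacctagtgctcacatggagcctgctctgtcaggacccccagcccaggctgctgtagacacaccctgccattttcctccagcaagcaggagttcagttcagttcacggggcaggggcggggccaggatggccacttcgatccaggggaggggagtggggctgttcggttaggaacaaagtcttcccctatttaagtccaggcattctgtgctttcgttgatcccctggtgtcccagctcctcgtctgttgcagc
Cybrd1: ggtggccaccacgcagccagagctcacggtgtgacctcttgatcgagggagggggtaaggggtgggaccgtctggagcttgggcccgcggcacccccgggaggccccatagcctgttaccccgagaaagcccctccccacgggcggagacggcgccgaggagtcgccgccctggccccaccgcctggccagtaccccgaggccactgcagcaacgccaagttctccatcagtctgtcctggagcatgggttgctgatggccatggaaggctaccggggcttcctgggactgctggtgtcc
Slc40a1: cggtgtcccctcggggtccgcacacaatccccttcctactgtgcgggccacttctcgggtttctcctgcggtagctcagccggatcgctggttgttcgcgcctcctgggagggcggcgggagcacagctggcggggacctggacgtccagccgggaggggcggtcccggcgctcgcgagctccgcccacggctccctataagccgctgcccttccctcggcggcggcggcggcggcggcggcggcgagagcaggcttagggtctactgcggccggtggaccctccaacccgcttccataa

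Plb1 held GTTAAT at -146 to -141 and CATAAA at -53 to -48 from the start, Tmigd1 held CATAAA at -55 to -50, and Cubn held AGATAA at -195 to -190. The windows of Akp3, Cybrd1 and Slc40a1 held 0 matches to the 4 motifs. GC content was 49.3% for Plb1, 36.0% for Tmigd1 and 44.7% for Cubn against 58.3%, 68.7% and 72.0% for Akp3, Cybrd1 and Slc40a1. Over promoters of the same length, CATAAA was in 11.3% of those of genes called higher, 8.67% of those called lower, 6.66% of those of all genes tested and 12.7% of the whole table. For GTTAAT these shares were 9.93%, 6.67%, 4.21% and 7.45%, for AGATAA 7.09%, 9.33%, 6.69% and 11.6%, and for ACGTG 24.8%, 20.7%, 25.2% and 19.3%. They rest on 141 promoters of 126 genes called higher and 150 promoters of 128 genes called lower, and no motif was tested. A match describes letters in a window and not a binding site.

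Genes of 3 steps of iron uptake and export, Cybrd1, Slc11a2 and Slc40a1, were far lower in the jejunum. Cybrd1, the ferric reductase of the brush border, read 5750, 22200 and 20100 in duodenum and 226, 325 and 251 in jejunum, a difference of -5.61 ± 0.29 (48.9-fold lower, limma adjusted p = 4.79e-06). Slc11a2, the apical iron importer that is mutated in these rats, read 28500, 27500 and 21700 in duodenum and 1340, 474 and 3680 in jejunum (-4.25 ± 0.42, 19.1-fold lower, limma adjusted p = 0.000348). Slc40a1, the basolateral iron exporter ferroportin, read 8850, 21400 and 15900 against 1040, 889 and 2590 (-3.41 ± 0.33, 10.7-fold lower, limma adjusted p = 0.000345). In each of the 3 genes the segments were apart in every array, with the jejunum of rat group 3 the brightest for Slc11a2 and Slc40a1. Dimmer probe sets gave -3.81 ± 0.27 for Slc11a2 and -3.60 ± 0.32 and -2.42 ± 0.38 for Slc40a1, all called, the last not without b/b rat group 1 or 2 (limma adjusted p = 0.0513 and 0.103).

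Genes of heme and intracellular iron moved less. Alas1, the first enzyme of heme synthesis, fell from 9340, 7140 and 5630 to 4560, 3300 and 3260 (-0.98 ± 0.12, limma adjusted p = 0.00189), and its segments were apart. The heme-degrading oxygenase Hmox1 read 352, 1950 and 1240 in duodenum and 229, 427 and 545 in jejunum (-1.30 ± 0.26, limma adjusted p = 0.027), with duodenum 1 below the other duodenum arrays and inside the jejunum range. Aco1, the cytosolic aconitase that also binds iron-responsive elements, rose by 0.62 ± 0.13 (limma adjusted p = 0.0355). Of 28 tested genes of the iron list 1 was called higher and 5 lower, or 21.4% against 2.98% of all 10067 genes at their brightest probe set, and the list median was -0.07 against 0.06. The share called was above that of all genes, at 5.26% to 52.9%, in 31 of the 36 lists described here (markers apart), which were not tested as lists. Each list count below is to be read beside the 2.98% of all genes. Not called were Heph, the basolateral ferroxidase (-0.37 ± 0.13, limma adjusted p = 0.188), and Ncoa4, the receptor of ferritin degradation (-1.70 ± 0.66, limma adjusted p = 0.24), although their arrays did not overlap. The lack of a call for Ncoa4 depended on the +/b arrays that share the spread. Without +/b rat group 3 it was called lower at the same difference (limma adjusted p = 0.000206). Tfrc, the transferrin receptor, which was chosen after its values were seen, had -0.54 ± 0.16 (limma adjusted p = 0.119). The calls of Hmox1 and Aco1 were lost without b/b rat group 2 or 3 or +/b rat group 1, that of Aco1 also without b/b rat group 1 (limma adjusted p up to 0.257), and these 2 and Alas1 did not pass without the block (0.411, 0.28 and 0.112).

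The hypoxia list shares the called genes Cybrd1, Slc11a2 and Slc40a1 with the iron list, and 1 of its 28 tested genes was called higher and 6 lower, with a median of -0.31. The share called was 25% against 2.98% of all genes. Epas1 and Hif1a, which encode alpha subunits of hypoxia-inducible factors, moved in opposite directions. Epas1 read 5110, 7520 and 8230 in duodenum and 1750, 981 and 2220 in jejunum (-2.11 ± 0.23, limma adjusted p = 0.000612). A dimmer Epas1 probe set had -1.62 ± 0.41 with no call (limma adjusted p = 0.0752). Hif1a read 1590, 1750 and 1760 in duodenum and 3160, 3550 and 4190 in jejunum (1.08 ± 0.13, limma adjusted p = 0.00149). Both genes separated the segments in all 6 arrays, although Hif1a did not pass without the block (limma adjusted p = 0.0797). Car9, a membrane carbonic anhydrase, fell from 1970, 4110 and 3830 to 742, 836 and 746 (4-fold lower, limma adjusted p = 0.000389). Ldha, the lactate dehydrogenase subunit of glycolysis, had -0.34 ± 0.12 with overlapping arrays (limma adjusted p = 0.201).

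Among calcium genes, S100g, Atp2b1 and Trpv6 were lower in the jejunum. S100g, the calcium-binding protein that ferries calcium through the enterocyte, read 13600, 35900 and 25400 in duodenum and 902, 1140 and 793 in jejunum (-4.61 ± 0.23, 24.4-fold lower, limma adjusted p = 4.79e-06). Atp2b1, the basolateral calcium pump, fell from 8040, 18500 and 18300 to 2560, 2020 and 3190 (-2.45 ± 0.26, limma adjusted p = 0.000551), and its dimmer probe sets gave -2.33 ± 0.30 and -3.28 ± 0.26. Trpv6, the apical calcium channel, read 348, 590 and 1100 in duodenum and 129, 30.6 and 288 in jejunum (-2.30 ± 0.39, limma adjusted p = 0.01). Entry, transit and exit of calcium each had a called gene that was lower in jejunum, with no overlap in any of the 3. They were the called members of 10 tested, whose median was -0.03. Vdr, the vitamin D receptor, had -0.23 ± 0.37 (limma adjusted p = 0.831), and the difference was 0.04 and 0.08 without b/b rat group 1 and 2. Cldn12, a claudin of the tight junction, had -0.42 ± 0.19 (limma adjusted p = 0.32).

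For phosphate, Slc34a2, the apical sodium phosphate cotransporter, rose while Akp3 fell. Slc34a2 read 268, 218 and 367 in duodenum and 948, 886 and 3140 in jejunum (2.25 ± 0.33, limma adjusted p = 0.00445). Alpi, another intestinal alkaline phosphatase, read 41900, 23700 and 15700 against 29200, 15100 and 16000 (-0.38 ± 0.14, limma adjusted p = 0.207), so that its segments overlapped where those of Akp3 were apart. Near-identical alkaline phosphatase genes can share probe signal, and this was not tested. Of 20 tested genes of zinc, copper and manganese, 2 rose and 2 fell (20% called against 2.98% of all genes). Slc30a10, a manganese exporter, fell from 2770, 4400 and 5890 to 1170, 1070 and 1530 (-1.73 ± 0.19, limma adjusted p = 0.000676), and Atp7a, the copper exporter, had -1.57 ± 0.28 (limma adjusted p = 0.0138). Dimmer Atp7a probe sets had -1.70 ± 0.60 and -1.46 ± 0.47, the same direction but no call (limma adjusted p = 0.188 and 0.151). Slc39a8, an importer of zinc and manganese, rose by 1.02 ± 0.16 and the metallothionein Mt2A by 1.03 ± 0.21 (limma adjusted p = 0.00735 and 0.0273), while Slc39a4, the apical zinc importer, had -0.45 ± 0.13 (limma adjusted p = 0.12). In the metal groups of the last paragraphs, Trpv6, Atp7a, Slc39a8 and Mt2A lost the call without b/b rat group 2 or 3, and Mt2A also without b/b rat group 1 (limma adjusted p from 0.0516 to 0.257), and without the block Trpv6, Slc34a2, Atp7a and Mt2A did not pass (limma adjusted p from 0.0869 to 0.651).

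Receptors for vitamin B12 and folate were among the strongest rises. Cubn, which takes up the complex of B12 and intrinsic factor, read 1710, 376 and 381 in duodenum and 12900, 6630 and 6860 in jejunum (3.70 ± 0.25, 13.0-fold, limma adjusted p = 3.9e-05). Its partner Amn, which carries Cubn to the membrane, read 5330, 3950 and 4970 against 8680, 7360 and 7260 (0.71 ± 0.15, limma adjusted p = 0.0291), and a dimmer probe set, with overlapping arrays, gave 1.35 ± 0.22. Folr1, a folate receptor, rose from 274, 197 and 198 to 1880, 3360 and 2130 (3.34 ± 0.23, limma adjusted p = 3.9e-05). All 3 genes had their segments apart on the brightest probe set, and rat group 1 was the brightest for Cubn in both segments. Slc19a1, the reduced folate carrier, moved the other way, from 2990, 3040 and 3470 to 1600, 823 and 1050 (-1.49 ± 0.19, limma adjusted p = 0.00169). Slc46a1, the proton-coupled folate transporter, had 0.25 ± 0.17 (limma adjusted p = 0.541) and Mmachc, which processes B12 in the cell, 0.80 ± 0.28 (limma adjusted p = 0.195). Of 10 tested genes of this list 4 were called higher and 1 lower, with a median of 0.48. The fourth rise was that of Naaladl1, a peptidase that is counted again in the list of brush border peptidases, where its values are given.

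Genes of other vitamins changed singly. Cd36, a receptor for fatty acids and carotenoids, read 10700, 3590 and 965 in duodenum and 16800, 8630 and 6330 in jejunum, higher in jejunum in each rat group but overlapping between them (1.54 ± 0.31, limma adjusted p = 0.0265). Aldh1a1, which makes retinoic acid, fell by 1.53 ± 0.29 (limma adjusted p = 0.0193), while Bco1, which cleaves carotene, had 0.16 ± 0.14 (limma adjusted p = 0.654). These were 1 rise and 1 fall among 15 tested vitamin A genes. Slc52a3, a riboflavin transporter, was the called gene of 10 in the list of other vitamins (1.04 ± 0.21, limma adjusted p = 0.0236), and Slc23a1, a vitamin C transporter, had 0.71 ± 0.17 (limma adjusted p = 0.0602). Slc23a1 was called higher without b/b rat group 1 or +/b rat group 3 (limma adjusted p = 0.0387 and 0.0496). The calls of Amn (both probe sets), Aldh1a1, Cd36 and Slc52a3 were lost without b/b rat group 2 or 3, that of the brighter Amn probe set also without b/b rat group 1 and that of Cd36 without +/b rat group 1 (limma adjusted p from 0.0624 to 0.269). Without the block Amn, Cd36 and Slc52a3 did not pass (0.162 on the brighter Amn probe set and 0.372 on the dimmer one, 0.438 and 0.122).

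Several conjugating enzymes were lower in the jejunum. Of 12 tested genes of glucuronidation and sulfation 4 fell and none rose, with a median of -0.61. Ugt2b7, a glucuronosyltransferase, read 467, 947 and 1340 in duodenum and 27.3, 42.5 and 106 in jejunum (-3.66 ± 0.28, limma adjusted p = 8.77e-05), and Ugt2b35 of the same family 824, 1250 and 1840 against 67.6, 88.4 and 299 (-3.16 ± 0.31, limma adjusted p = 0.000348). The segments were apart for both, with rat group 3 the brightest in each segment. Papss2, which makes the sulfate donor, fell by 1.95 ± 0.29 and Ugdh, which makes the glucuronic acid donor, by 0.71 ± 0.15 (limma adjusted p = 0.00528 and 0.0336). Ugt2b10 (-0.19 ± 0.16) and the sulfotransferase Sult1b1 (-0.51 ± 0.14) were not called (limma adjusted p = 0.653 and 0.0837). Probe sets of such gene families can share signal between members.

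Among alcohol and aldehyde enzymes 8 of 24 tested genes fell and 2 rose, with a median of -0.26. Adh1c, a class I alcohol dehydrogenase, fell from 9700, 8780 and 8030 to 609, 460 and 1520 (-3.52 ± 0.35, 11.5-fold lower, limma adjusted p = 0.000348). Adh7, the class IV enzyme, read 187, 318 and 335 against 17.6, 5.92 and 7.61 (-3.47 ± 0.72, limma adjusted p = 0.0298). Akr1c15, an aldo-keto reductase, fell by 2.10 ± 0.25, Adh4 by 1.97 ± 0.32 and Hsd17b2, a hydroxysteroid dehydrogenase, by 1.00 ± 0.13 (limma adjusted p = 0.00139, 0.00787 and 0.00208). Aldh1b1, a mitochondrial aldehyde dehydrogenase, went the other way, from 2240, 1070 and 1080 to 5820, 6350 and 5330 (2.07 ± 0.24, limma adjusted p = 0.000856). Cytochrome P450 genes had 3 rises and 2 falls among 23 (21.7% called against 2.98% of all genes), the second fall being that of Cyp51 (below). Cyp2s1 fell from 2040, 2920 and 2140 to 550, 505 and 847 (-1.89 ± 0.22, limma adjusted p = 0.000856), while Cyp4b1 rose by 1.14 ± 0.16, Cyp3a18 by 0.77 ± 0.16 and Cyp2d2 by 0.75 ± 0.16 (limma adjusted p = 0.00314, 0.0273 and 0.0302). Of the calls on conjugation and oxidation, Papss2 and Adh4 were lost without b/b rat group 2, Ugdh and Adh7 also without b/b rat group 3 or +/b rat group 1, and Cyp3a18 and Cyp2d2 without those 3 or b/b rat group 1 (limma adjusted p from 0.052 to 0.312). Without the block Papss2, Ugdh, Akr1c15, Adh4, Hsd17b2, Cyp4b1, Cyp3a18 and Cyp2d2 did not pass (limma adjusted p from 0.0513 to 0.671).

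The called antioxidant genes were lower as well, by smaller amounts. Of 37 tested genes of glutathione and thioredoxin 6 fell and none rose (16.2% called against 2.98% of all genes), and 28 had a difference below 0 (median -0.37). Nqo1, a quinone reductase, fell by 1.20 ± 0.22, the glutathione transferase Gstt3 by 0.95 ± 0.17 and Gpx4, a lipid hydroperoxide reductase, by 0.90 ± 0.15 (limma adjusted p = 0.0153, 0.0123 and 0.00829). Txn1, thioredoxin, read 31400, 29000 and 23300 in duodenum and 16300, 16500 and 15700 in jejunum (-0.77 ± 0.12, limma adjusted p = 0.00538), and its reductase Txnrd1 fell by 0.77 ± 0.16 (limma adjusted p = 0.0255). Gsta4 fell by 0.57 ± 0.13 (limma adjusted p = 0.0493), while Gstp1 had -0.37 ± 0.13 (limma adjusted p = 0.201). Each of these 6 calls was lost without b/b rat group 2, all but Txn1 also without b/b rat group 3, Txnrd1 without b/b rat group 1 and Gsta4 in each of the 6 fits (limma adjusted p from 0.0507 to 0.324). None of the 6 passed without the block (limma adjusted p from 0.0669 to 0.394).

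Genes of dietary lipid held few calls. Of 28 tested genes of apolipoproteins and chylomicron assembly, Plb1, Cd36 and Apoc2 rose and none fell, with a median of -0.03. Apoc2, the cofactor of lipoprotein lipase, read 8200, 8280 and 4690 in duodenum and 18200, 13600 and 10900 in jejunum (1.03 ± 0.19, limma adjusted p = 0.0179). Of 14 genes of bile acids and sterols, Fabp6 and the sterol exporter Abcg8 (1.08 ± 0.24, limma adjusted p = 0.0453) rose and Abcc2, an exporter of conjugates, fell (-0.82 ± 0.19, limma adjusted p = 0.0453). Slc51a, the basolateral bile acid exporter, had 0.27 ± 0.16 (limma adjusted p = 0.449).

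Sterol and fatty acid synthesis had 7 falls and no rise among 30 tested genes (23.3% called against 2.98% of all genes), with 25 below 0 and a median of -0.47. Sqle, squalene epoxidase, read 539, 1790 and 3810 in duodenum and 283, 278 and 703 in jejunum (-1.98 ± 0.36, limma adjusted p = 0.016), and Idi1, an isomerase of the same pathway, 1390, 4900 and 10000 against 1070, 1040 and 2360 (-1.56 ± 0.33, limma adjusted p = 0.0326, and -1.75 ± 0.31 on a dimmer probe set that was also lost without b/b rat group 2 or 3). In both genes duodenum 1 was the lowest duodenum array and overlapped the jejunum range. Elovl6, a fatty acid elongase, fell from 2930, 3950 and 4080 to 1420, 697 and 1430 with no overlap (-1.67 ± 0.23, limma adjusted p = 0.00268). Mvd (-1.54 ± 0.24), the sterol demethylase Cyp51 (-1.30 ± 0.26) and Tm7sf2 (-1.12 ± 0.18) also fell (limma adjusted p = 0.00692, 0.0248 and 0.0077). A dimmer Cyp51 probe set had -1.34 ± 0.36 with no call (limma adjusted p = 0.0879). Msmo1 and Insig1 had -1.21 ± 0.31 and -0.94 ± 0.24 with no call (limma adjusted p = 0.0756 and 0.0769). Both were called lower without b/b rat group 1 (limma adjusted p = 0.029 and 0.00258). Msmo1 was also called without +/b rat group 2 or 3 (limma adjusted p = 0.0317 and 0.0326).

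In fatty acid oxidation 1 of 29 genes rose and 1 fell (6.9% called against 2.98% of all genes). Angptl4, an inhibitor of lipoprotein lipase, rose from 245, 517 and 493 to 1770, 1230 and 1390 (1.82 ± 0.27, limma adjusted p = 0.00484), and Acadm, a medium-chain dehydrogenase, fell by 0.80 ± 0.17 (limma adjusted p = 0.033). Oxidative phosphorylation had 1 call among 42 (2.38%, below the 2.98% of all genes), Uqcrc1 of complex III (-0.51 ± 0.11, limma adjusted p = 0.0325), but all 42 differences were below 0 (-0.58 to -0.01, median -0.24, with 4 of 42 above 0 after quantile normalisation). Of the calls on lipids and respiration, Elovl6, Angptl4 and Plb1 passed in each fit without 1 rat group. The other named calls were lost without b/b rat group 2, and without b/b rat group 3 except for Fabp6 and Acadm, and those of Apoc2, Abcc2, Acadm and Uqcrc1 also without b/b rat group 1. Without +/b rat group 1 the calls of Cd36, Abcg8, Abcc2, Idi1, Cyp51, Acadm and Uqcrc1 were lost, and that of Abcg8 without +/b rat group 2 (limma adjusted p from 0.0504 to 0.347 over these fits). The same genes did not pass without the block (limma adjusted p from 0.0675 to 0.438), except Tm7sf2.

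Sugar and lactate genes gave 2 rises and 1 fall among 17. Pck1, which starts gluconeogenesis, read 6270, 1730 and 4070 in duodenum and 15300, 7410 and 13700 in jejunum (1.71 ± 0.17, limma adjusted p = 0.000348). Slc5a12, a sodium-coupled lactate transporter, read 3000, 304 and 554 against 8140, 2530 and 3530 (2.35 ± 0.30, limma adjusted p = 0.00182), higher in jejunum in each rat group although duodenum 1 lay above jejunum 2. Treh, trehalase, fell by 0.99 ± 0.20 (limma adjusted p = 0.0273), and Si, sucrase-isomaltase, had -0.12 ± 0.14 (limma adjusted p = 0.776), which became 0.02 after quantile normalisation and 0.01 without b/b rat group 1. Peptidases of the brush border had 3 rises among 17, namely Naaladl1 (1.59 ± 0.18), the meprin Mep1a (0.87 ± 0.13) and the dipeptidase Dpep1 (0.80 ± 0.13), with limma adjusted p = 0.000728, 0.00453 and 0.0082. None of 21 transporters of amino acids and peptides was called, with Slc15a1, the peptide transporter, at 0.18 ± 0.16 (limma adjusted p = 0.644).

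Among genes of nucleosides and organic ions, Slc28a2, Pnp and Ada were lower in the jejunum. Slc28a2, a nucleoside transporter, read 27300, 13700 and 9560 in duodenum and 7570, 5660 and 6670 in jejunum (-1.21 ± 0.25, limma adjusted p = 0.0287), and the purine enzymes Pnp and Ada fell by 0.72 ± 0.14 and 0.69 ± 0.15 (limma adjusted p = 0.0254 and 0.0374), which made 3 falls among 17 genes of nucleosides and organic ions. Of 30 genes of amino acid metabolism 3 fell and 1 rose. Ldhd, which oxidises D-lactate, fell from 3210, 5580 and 5460 to 911, 805 and 1040 (-2.31 ± 0.18, limma adjusted p = 9.6e-05), and its dimmer probe set gave -2.42 ± 0.25. Dao, an oxidase of D-amino acids, fell by 0.80 ± 0.19 and Gda, guanine deaminase, by 0.62 ± 0.12 (limma adjusted p = 0.0493 and 0.0241), and Oat, ornithine aminotransferase, rose by 0.99 ± 0.15 (limma adjusted p = 0.00528). A dimmer Gda probe set had -0.44 ± 0.12 with no call (limma adjusted p = 0.0967). In these groups of sugars, peptides and purines, Pck1, Slc5a12, Naaladl1 and Ldhd passed in each fit without 1 rat group. The other 9 calls were lost without b/b rat group 2, those of Slc28a2, Ada and Gda also without b/b rat group 1, those of Treh, Pnp, Mep1a, Dpep1, Dao and Gda without b/b rat group 3, those of Treh, Pnp, Ada and Dao without +/b rat group 1, and that of Dao without +/b rat group 2 (limma adjusted p from 0.0517 to 0.363). Those 9, Pck1 and Slc5a12 did not pass without the block (limma adjusted p from 0.129 to 0.541).

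Transport of acid, chloride and water changed in both directions, with 6 falls and 4 rises among 30 tested genes (median -0.12, or 0.05 after quantile normalisation). Slc4a7 and Car9 fell as given above, and Slc4a4, a basolateral sodium bicarbonate cotransporter, fell too, at 2320, 6120 and 8340 in duodenum and 1320, 2230 and 2490 in jejunum (-1.33 ± 0.23, limma adjusted p = 0.0121). Aqp3, a water and glycerol channel, rose from 327, 156 and 118 to 865, 1160 and 1310 (2.48 ± 0.32, limma adjusted p = 0.00209), and Aqp1, a water channel, from 2650, 1480 and 1090 to 6230, 5900 and 4850 (1.78 ± 0.18, limma adjusted p = 0.000348). Both water channels were apart between the segments in all 6 arrays. Car4, a membrane carbonic anhydrase, rose by 1.33 ± 0.18 and Slc12a2, a basolateral chloride importer of crypt cells, by 1.19 ± 0.19 (limma adjusted p = 0.0031 and 0.00807). Abcb1a, the efflux pump P-glycoprotein, rose from 1070, 1730 and 1380 to 3120, 4740 and 4880 (1.59 ± 0.18, limma adjusted p = 0.00091), and 13 tight junction genes had no call (-0.66 to 0.48). Slc12a2 was lost without b/b rat group 2 (0.129), Slc4a4 without b/b rat group 2 or 3 (0.144 and 0.118), and without the block Slc4a4, Car4 and Slc12a2 did not pass (limma adjusted p = 0.292, 0.065 and 0.0797).

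Hormone genes of enteroendocrine cells moved in both directions. Nts, neurotensin, read 406, 542 and 179 in duodenum and 4250, 8070 and 4830 in jejunum (3.94 ± 0.36, 15.4-fold, limma adjusted p = 0.000219). Gcg, whose product gives glucagon-like peptides, rose from 64.6, 109 and 158 to 414, 1170 and 1150 (2.80 ± 0.35, limma adjusted p = 0.00172). Pyy, peptide YY, read 13.6, 7.75 and 6.36 against 98.5, 358 and 230, dim signals in both segments (3.13 ± 0.71, limma adjusted p = 0.045). Ghrl, ghrelin, fell from 1180, 1470 and 1730 to 369, 98.1 and 609 (-2.27 ± 0.36, limma adjusted p = 0.00675), and Sct, secretin, from 1640, 1630 and 1530 to 871, 763 and 673 (-1.05 ± 0.16, limma adjusted p = 0.00528). These 3 rises and 2 falls stood among 16 tested genes, and Gip (0.24 ± 0.14) and Cck (-0.89 ± 0.29) were not called (limma adjusted p = 0.446 and 0.159). Cck was called lower without b/b rat group 3 (limma adjusted p = 0.0267). The call of Pyy was lost without b/b rat group 2 or 3 or +/b rat group 1 or 2 (limma adjusted p up to 0.347) and that of Sct without b/b rat group 2 or 3 (0.0763 and 0.0532).

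Most called products of Paneth cells were higher in the jejunum. Pla2g2a, a secreted phospholipase, read 842, 255 and 144 in duodenum and 4580, 8730 and 2450 in jejunum (3.79 ± 0.35, 13.9-fold, limma adjusted p = 0.000219). Defa24, a defensin, read 5240, 2340 and 2250 against 16000, 23400 and 9820 (2.35 ± 0.25, limma adjusted p = 0.000484), and RatNP-3b, another defensin, 1090, 505 and 491 against 2690, 7000 and 1890 (2.32 ± 0.36, limma adjusted p = 0.00675). In these 3 genes jejunum 2 was the brightest array. Lyz2 rose from 7730, 4180 and 3220 to 18100, 19900 and 9340 (1.67 ± 0.18, limma adjusted p = 0.000668). Reg1a, a lectin of crypt and pancreas, fell from 6310, 6320 and 4010 to 2070, 458 and 2230 (-2.06 ± 0.40, limma adjusted p = 0.0218), which made 4 rises and 1 fall among 13, and Spink4 had -0.55 ± 0.30 (limma adjusted p = 0.416). Defensin genes are alike in sequence, so their probe sets can share signal.

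Among genes of goblet cells and mucosal defence, 5 were called lower and 1 higher. Dmbt1, a mucosal scavenger protein, read 14200, 14000 and 13600 in duodenum and 4550, 1880 and 5930 in jejunum (-1.91 ± 0.30, limma adjusted p = 0.00714), and Pigr, which carries immunoglobulin A into the lumen, fell by 0.96 ± 0.15 (limma adjusted p = 0.00747). St6gal1, a sialyltransferase, rose by 1.61 ± 0.25 (limma adjusted p = 0.00675), and Muc2, the main gel-forming mucin, had 0.10 ± 0.14 (limma adjusted p = 0.806), or -0.00 with median centring and -0.01 without b/b rat group 2. With Tff1 these were 1 rise and 3 falls among 21. Of 25 genes of inducible defence 3 fell, Pigr among them, led by Ccl20, a chemokine that attracts immature dendritic cells and lymphocytes, at 1510, 4010 and 6190 in duodenum and 409, 796 and 882 in jejunum (-2.32 ± 0.23, limma adjusted p = 0.000348). Fut2, a fucosyltransferase, fell by 0.65 ± 0.14 (limma adjusted p = 0.0407). A dimmer Fut2 probe set did not show the fall, with 0.14 ± 0.29 and no call (limma adjusted p = 0.874). None of 10 MHC class II genes was called, with Cd74 at -0.14 ± 0.12 (limma adjusted p = 0.661). In the Paneth, goblet and defence groups, Reg1a, Tff1, Dmbt1, Pigr, St6gal1 and Fut2 lost the call without b/b rat group 2, Reg1a, Pigr and Fut2 also without b/b rat group 1, Tff1 and Fut2 without b/b rat group 3, and Reg1a and Fut2 without +/b rat group 1 (limma adjusted p from 0.0543 to 0.257). Without the block RatNP-3b, Lyz2, Reg1a, Tff1, Dmbt1, Pigr and Fut2 did not pass (limma adjusted p from 0.0575 to 0.298).

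Nearly all cell cycle genes had small differences above 0, and few were called. Of 40 cell cycle genes 39 were above 0 (36 with median centring or quantile normalisation), with a median of 0.59 against 0.06 over all genes, and 4 were called higher and 1 lower. Cenpf, a kinetochore protein, rose from 98.9, 145 and 235 to 396, 309 and 479 (1.28 ± 0.24, limma adjusted p = 0.0193), and Stmn1, Ect2 and Ube2c, which act on microtubules, cytokinesis and mitotic exit, rose by 1.23 ± 0.26, 1.05 ± 0.22 and 0.95 ± 0.20 (limma adjusted p = 0.0332, 0.0291 and 0.0336). Pcna, the sliding clamp of DNA replication, fell from 2790, 6620 and 6790 to 2180, 3060 and 3980 (-0.74 ± 0.15, limma adjusted p = 0.0287), and Mki67 had 0.75 ± 0.20 (limma adjusted p = 0.0933). Crypt and stem cell genes had 2 rises among 18 and a median of 0.56. They were Cdca7, a progenitor cell gene (1.20 ± 0.23, limma adjusted p = 0.0193), and Slc12a2, while Hopx had -0.40 ± 0.12 (limma adjusted p = 0.129). The cell cycle count was 0 without b/b rat group 2 or 3 and 2 without +/b rat group 1, Ect2 and Cenpf were also lost without b/b rat group 1, and the call of Cdca7 was lost without b/b rat group 2 or 3 (limma adjusted p from 0.0544 to 0.311). None of these calls held without the block (limma adjusted p from 0.0669 to 0.45).

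Regional transcription factors were called in both directions. Besides Pdx1, the homeobox factors Onecut2 and Meis2 fell. Onecut2 read 3690, 4700 and 5640 in duodenum and 1100, 287 and 1660 in jejunum (-2.48 ± 0.39, limma adjusted p = 0.00675), and 3 dimmer probe sets gave -3.14 ± 0.50, -2.22 ± 0.44 and -2.49 ± 0.42. Meis2 read 216, 493 and 742 against 80.5, 43.2 and 31.6 (-2.79 ± 0.50, limma adjusted p = 0.0142). Osr2 and Gata5, a zinc finger factor (0.94 ± 0.20, limma adjusted p = 0.0343), rose, while Hnf4a (-0.21 ± 0.14) and Creb3l3 (0.28 ± 0.13) were not called (limma adjusted p = 0.54 and 0.346). A list for the distal small intestine was chosen, like the others, with earlier results of these data known. Of its 23 genes 17 were tested, and 9 rose and none fell (52.9% called against 2.98% of all genes, median 0.71). The 9 were Plb1, Osr2, Fabp6, Nts, Cubn, Pyy, Gcg, Mep1a and Amn, and 5 of 17 were called without b/b rat group 2 (6 without group 3). Fabp6 averaged 45.9 in b/b and 80.9 in +/b duodenum, so it passed the signal filter through its jejunum arrays. For such a member a rise was favoured in advance. Of 19 immediate early genes 5.26% were called, against 2.98% of all genes. The called gene was Atf3, a stress-induced factor (2.26 ± 0.52, limma adjusted p = 0.0474), and its duodenum 1 signal of 18.9 was far below the 952 and 516 of the other duodenum arrays. Jund had 0.16 ± 0.24 (limma adjusted p = 0.829), and 17 genes of heat shock and the endoplasmic reticulum had no call, with Hspa5 at -0.22 ± 0.12 (limma adjusted p = 0.427). Of the dimmer Onecut2 probe sets, 1 was lost without b/b rat group 2 (0.103) and 1 without b/b rat group 2 or 3 (0.159 and 0.0524). Meis2 and Gata5 lost the call without b/b rat group 2 or 3 and Atf3 without any rat group but +/b rat group 3 (limma adjusted p from 0.058 to 0.256), and Gata5 and Atf3 did not pass without the block (0.391 and 0.415).

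**Figure D3:**
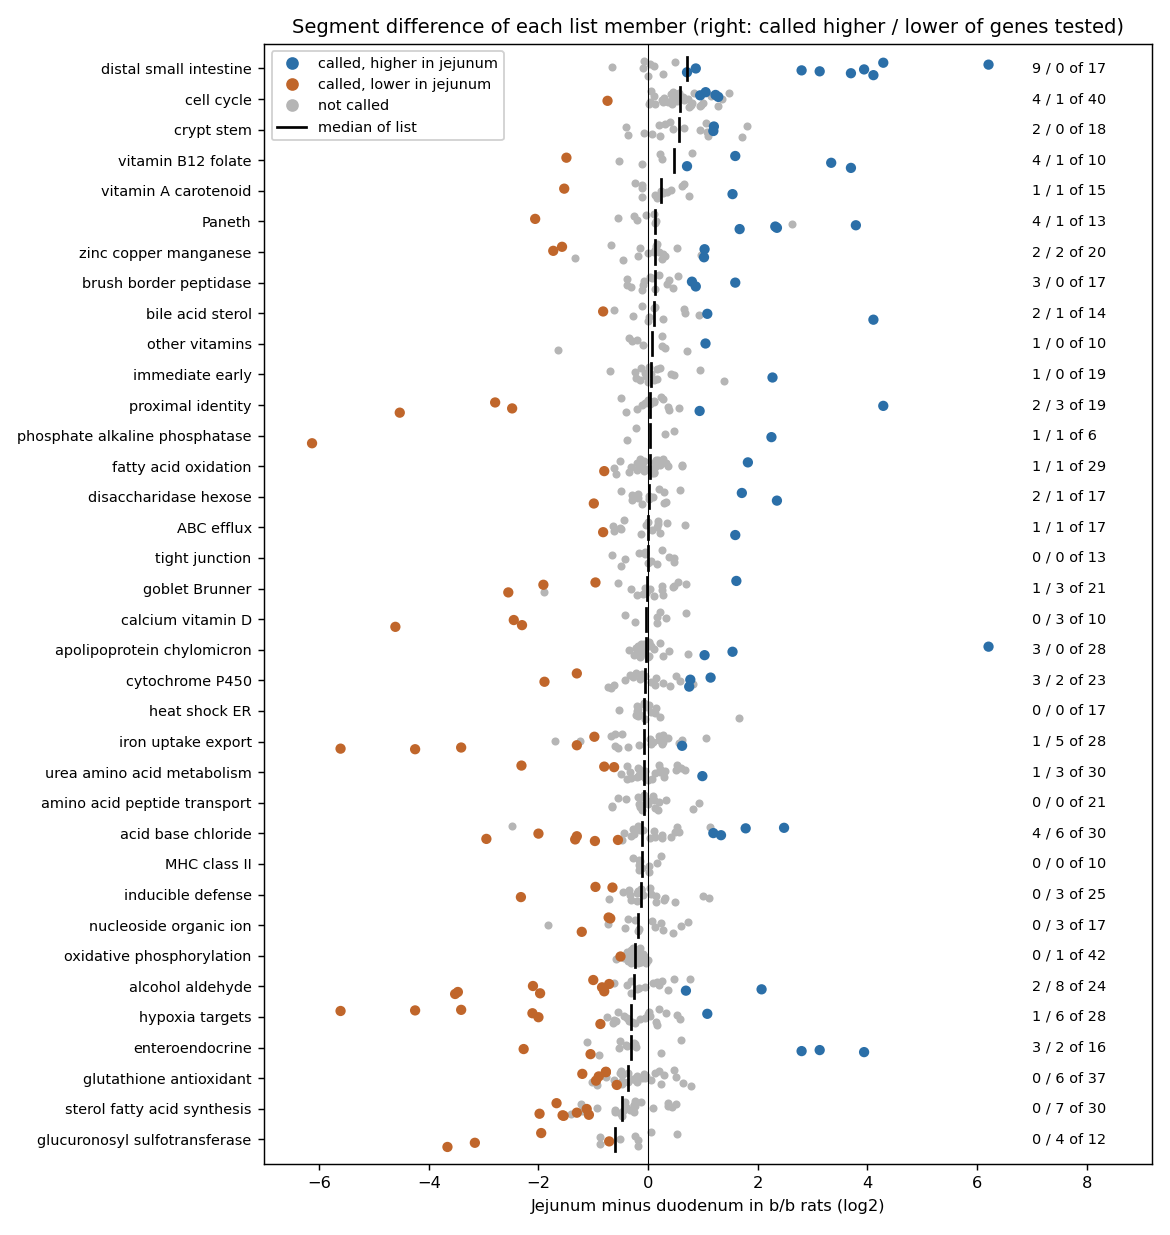
Difference of jejunum minus duodenum in b/b rats (x axis, log2) for each tested gene of 36 lists (rows, ordered by the list median), a gene shown on its brightest probe set. Coloured points are called genes, grey points are not called, bars are list medians, and the numbers on the right count called genes higher and lower of those tested. The list of the distal small intestine has its 9 calls on the right of 0, and all 42 points of oxidative phosphorylation lie left of 0 under the main scaling.

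The same contrast in +/b rats called 86 probe sets (0.486%), 30 with higher and 56 with lower signal in the jejunum. Among the b/b calls, 80 were also called in +/b rats in the same direction, or 18.6% of the b/b calls and 93.0% of the +/b calls. The contrasts share no array, although they share 1 estimate of the spread. The sign was the same in +/b rats for 418 of the 431. The difference was larger in size in b/b rats for 405 of 431 b/b calls and for 62 of 86 +/b calls, and each of these counts favours the genotype in which the probe sets were chosen, the first the b/b and the second the +/b rats. Plb1 had 4.95 in +/b rats against 6.21 in b/b rats, Akp3 -5.61 against -6.13, and S100g -4.03 against -4.61. Called in +/b but not in b/b rats were 6 probe sets, those of Alpi (-0.80 ± 0.14 in +/b rats), Slc13a1 (-1.30 ± 0.20), Map7d1 (-1.14 ± 0.19), Aldh4a1 (-1.02 ± 0.19), Mcpt9 (1.07 ± 0.17) and 1 with no annotated gene. A dimmer probe set of Slc13a1 was called in b/b rats (-0.91, limma adjusted p = 0.0343), and none of the 6 had a called difference between the genotypes.

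**Figure D4:**
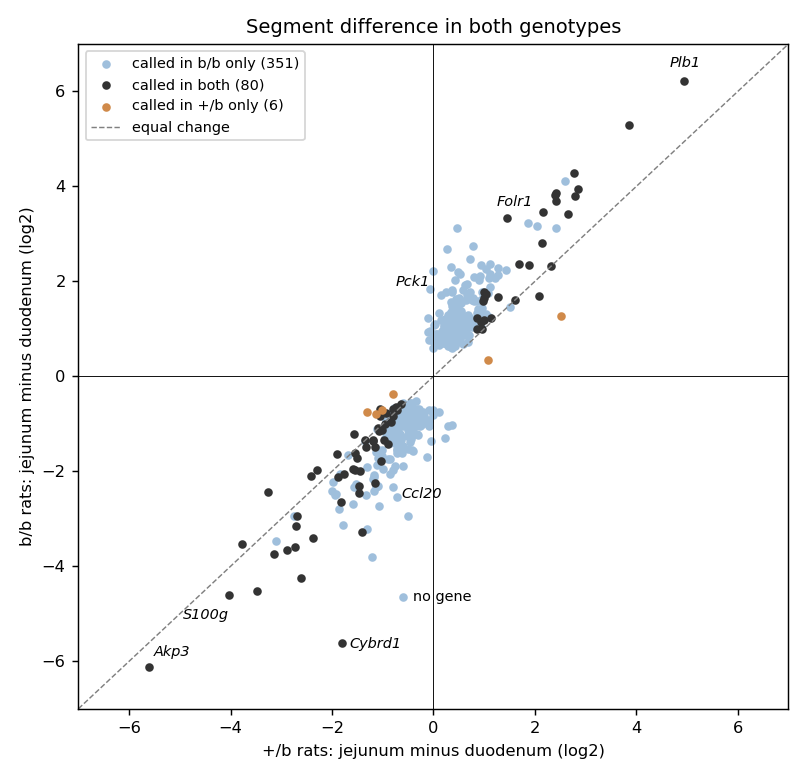
Difference of jejunum minus duodenum (log2) in +/b rats (x axis) and b/b rats (y axis) for the probe sets called in either genotype, 1 point per probe set. Colour gives the genotype of the call, and the dashed line marks equal differences. Most points lie in the lower left and upper right of the plot, and Cybrd1 (-1.81 in +/b, -5.61 in b/b) and the probe set with no gene (-0.60 and -4.64) lie far below the line.

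The difference between the genotypes was itself called for 2 of 17694 probe sets (0.0113%), with 777 at an unadjusted p under 0.05. In +/b rats Cybrd1 read 600, 771 and 1160 (duodenum) and 228, 174 and 268 (jejunum), against the values above in b/b rats. The jejunum signals of both genotypes overlapped, whereas every b/b duodenum array was above every +/b duodenum array, and the segment difference was larger in b/b rats by -3.80 ± 0.40 (limma adjusted p = 0.0218). The other was a probe set with no annotated gene, at 2840, 13000 and 12200 in b/b duodenum, 233, 503 and 212 in b/b jejunum, 490, 415 and 634 in +/b duodenum and 243, 352 and 411 in +/b jejunum (-4.04 ± 0.46, limma adjusted p = 0.0223). Both calls were lost without b/b rat group 2 (limma adjusted p = 0.129 for each), +/b rat group 1 (0.192 for each) or +/b rat group 2 (0.111 and 0.194), that of Cybrd1 also without b/b rat group 3 (0.0637), and neither passed without the block (0.252 and 0.338). The exocrine pancreas signal of +/b duodenum 2 and b/b duodenum 3 lies in this comparison, and without both of those rat groups the differences were -3.61 and -3.30 (limma adjusted p = 0.324 for each).

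Of the 28 tested iron genes, 17 had a genotype difference below 0 and 11 above (median -0.05), and Cybrd1 was the called one. The genotype difference was -2.60 ± 0.38 on the dimmer probe set of Slc11a2 (limma adjusted p = 0.155) and -1.65 ± 0.60 on the brighter one (limma adjusted p = 0.965). For Slc40a1 it was -1.04 ± 0.47 (limma adjusted p = 0.965). For Alas1 it was -0.78 ± 0.18 (limma adjusted p = 0.965), and its +/b signals were 4300, 3830 and 2920 in duodenum and 3850, 3310 and 2500 in jejunum. Tfrc was brighter in the jejunum in each +/b rat group (4080, 2140 and 3030 in duodenum, 5040, 3550 and 5050 in jejunum) and dimmer in each b/b rat group (6310, 8650 and 8140 in duodenum, 5230, 4390 and 6250 in jejunum), with a genotype difference of -1.13 ± 0.23 that was not called (limma adjusted p = 0.658).

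Outside iron, the genotype differences of Pck1, Folr1, Hif1a and Ccl20 were not called either, nor was that of a dimmer Atp2b1 probe set (-1.87 ± 0.37, limma adjusted p = 0.658). Pck1 read 13200, 7340 and 6370 in duodenum and 13700, 6700 and 9120 in jejunum of +/b rats, which overlapped, and its genotype difference was 1.56 ± 0.24 (limma adjusted p = 0.156). Folr1 read 421, 1130 and 530 in +/b duodenum and 1420, 2950 and 1290 in +/b jejunum, and the difference between genotypes was 1.89 ± 0.32 (limma adjusted p = 0.272). Hif1a (0.88 ± 0.19) and Ccl20 (-1.53 ± 0.33) had limma adjusted p = 0.812. The test of Pck1 passed with array weights (1.64, limma adjusted p = 0.0471). For S100g, Akp3 and Plb1, leading genes called in both genotypes, the difference between them was -0.58, -0.52 and 1.27, and none was called.

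**Figure D5:**
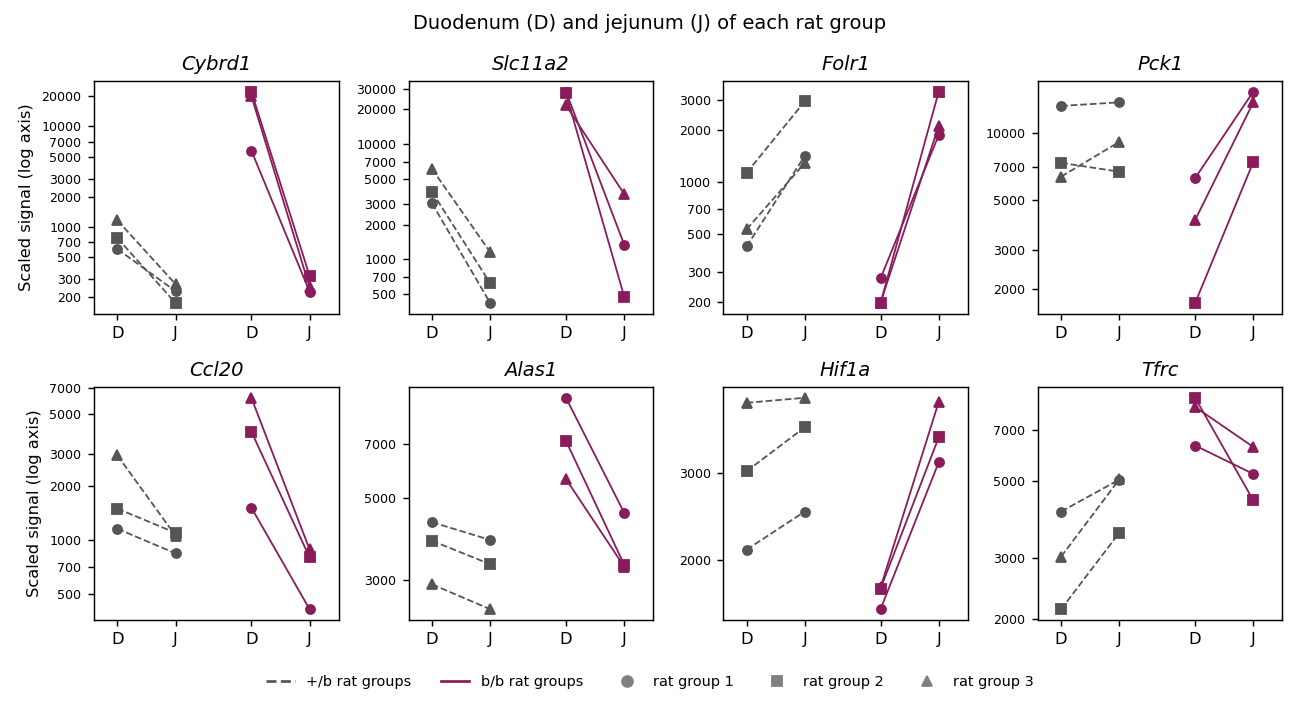
Scaled signal (y axis, log scale, a separate range per panel) of 8 genes in duodenum (D) and jejunum (J), with a line joining the arrays of 1 rat group. Dashed grey lines are the +/b and solid purple lines the b/b rat groups. The Cybrd1 lines of b/b rats start between 5750 and 22200 and end between 226 and 325, close to the +/b jejunum, and the Tfrc lines of the genotypes slope in opposite directions.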

How the data were processed

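Scrapes of duodenum and jejunum from 3 rat groups of each genotype gave 12 arrays. The probe set signals are intensities deposited by the authors, and the submitters' processing notes name MAS5, without a version, for 10 of 12 arrays. Of the 12 arrays, 10 had a deposited 2% trimmed mean of 500.2, and +/b duodenum 2 and 3 had 51.6 and 126.6, so each array was rescaled to 500 (factors 9.69 and 3.95 for those). Depth has no counterpart on arrays, and the number of arrays limits the precision. Detection calls were not analysed here.

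After removal of 57 control probe sets, 17694 whose scaled signal averaged 100 or more were fitted with limma 3.58.1 in R 4.3.3 (log2 of signal + 16, intensity trend, Benjamini-Hochberg) on all 12 arrays with rat group as a block. The pairing comes from the series design, in which each rat group supplied both segments. Deviations of same-numbered arrays correlated at 0.16 to 0.38 in b/b and 0.19 to 0.28 in +/b rats. P-values test the mean paired segment difference, or its difference between genotypes, against the spread of paired differences over the rat groups. That spread is 1 estimate per probe set shared by both genotypes, and limma moderates it toward a trend with intensity over all probe sets. With no intensity trend, 69 probe sets were called in b/b rats. Differences in level between rat groups are taken out by the block. The step was tested on simulated data with planted b/b jejunum changes and a rat group effect, as the fitted model assumes. A good outcome was thus favoured, and the test says nothing on whether these arrays meet that assumption. The simulated noise was Gaussian and of equal size on every array, so the test does not cover arrays that stand apart or carry pancreas signal. Genes were named from probe sets with 1 annotated gene (20832), and 436 with several and 9780 with none stayed unnamed.

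The members and lists were chosen with earlier results of these data known. Named were the 12 largest non-overlapping changes per direction among called genes, up to 6 called and 3 uncalled members of each list (the latter by signal), and the genes leading the genotype difference. Dimmer probe sets, called or not, are given for some of the named genes only. Tfrc, Slc13a1, Map7d1, Aldh4a1 and Mcpt9 were named after their values were seen. Alternatives covered the block, scaling, pseudocount, filter, array weights, trend and each rat group left out. Promoters are from RefSeq (GRCr8).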

Additional observations from a re-analysis of the deposited data

Results flagged for a closer look

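The segment difference of Cybrd1 differed between the genotypes by -3.80 ± 0.40 (b/b minus +/b, log2, limma adjusted p = 0.0218), from -5.61 in b/b and -1.81 in +/b rats. The probe set with no annotated gene differed by -4.04 ± 0.46 (limma adjusted p = 0.0223), from -4.64 in b/b and -0.60 in +/b rats. Both were set apart by the test of the difference itself, in all 3 b/b rat groups the jejunum was the dimmer segment, and the fits in which each call is lost are given with the results.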

How the results depend on the processing

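The block by rat group follows from the pairing in the design. With no replicate block, 135 probe sets were called in b/b rats in place of 431, and 0 in place of 2 for the genotype difference (306 at an unadjusted p under 0.05). The b/b count was 38 on the values as deposited, 69 with no intensity trend, 878 with array weights and 140 without the rat groups with pancreas signal, the last chosen after seeing the data. It lay between 101 and 509 when 1 rat group was left out, and was within 1.5 times of 431 in the 9 other settings tried. The genotype difference was called for 4 probe sets with array weights, and for 0 with no intensity trend (712 unadjusted), without the rat groups of the arrays with another deposited scale (565) and without those with pancreas signal (465). It was called for 0 to 2 when 1 rat group was left out. Differences near 0 changed sign. Muc2 had -0.00 with median centring and -0.01 to 0.19 when 1 rat group was left out, Si had 0.02 after quantile normalisation and -0.23 to 0.01, and Vdr had -0.82 to 0.08. On the values as deposited, where the median genotype difference over all probe sets was -1.55, that of Pck1 was -0.18 and that of Hif1a -0.84. For the settings not explained by fewer samples or by that shift, the cause was not tested. Of 140 named called probe sets 60 passed in all 6 fits without 1 rat group, and 79 did not pass without the block.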
